A study of Mus musculus with 10 samples.

Results

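Lin28b, Hmga1, Hmga2, Igf2bp1, Igf2bp2 and Igf2bp3 are 6 genes of 43346 in a table of raw read counts from O9-1 cells, a line derived from the cranial neural crest of the mouse. They were chosen by their gene symbols and are described here in all 10 libraries. RNA came from wildtype cells (WT/1 to WT/4), from Kat5 knockout (ko) clones (Kat5/1 to Kat5/3) and from Ep400 ko clones (Ep400/1 to Ep400/3). Kat5 is a histone acetyltransferase and Ep400 an ATPase of the same Tip60/Ep400 chromatin remodeling complex, and the study asked how O9-1 cells depend on each of them. The clones were made by CRISPR/Cas9 editing of single cells, and each clone contributed 1 library. The study describes the cells as tetraploid and the Kat5 ko clones as edited in all Kat5 alleles, with predicted frameshifts. Clone Ep400/1 carries frameshifts in all Ep400 alleles. Clones Ep400/2 and Ep400/3 also keep Ep400 alleles with in-frame deletions in the ATP binding site. All cells were cultured on Matrigel in preconditioned medium with FGF2, and the wildtype cells were not said to have passed through cloning, so that clonal origin and genotype cannot be told apart.

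The 6 genes are best known from embryonic and other immature cells. Lin28b is an RNA-binding protein that blocks the maturation of let-7 microRNAs, small RNAs that accumulate as cells differentiate. Hmga1 and Hmga2 are architectural chromatin proteins that bind AT-rich DNA and are abundant in proliferating embryonic cells. Igf2bp1, Igf2bp2 and Igf2bp3 bind messenger RNAs and influence their stability, transport and translation. Transcripts of Lin28b, of the Hmga genes and of the Igf2bp genes are textbook targets of let-7, which pairs through its seed with short matches in their 3' untranslated regions (3' UTRs).

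A match to the let-7 seed is the first feature described. Because the 6 genes are known let-7 targets, the shares of all genes given below are a description and no test. In RefSeq sequences, bases 2 to 8 of the mature microRNA read GAGGUAG in 10 of 11 members of the mouse family. A pair of family members is shown with the seed in capitals, because these bases define the matches that follow.

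let-7a-5p: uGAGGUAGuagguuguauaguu

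let-7g-5p: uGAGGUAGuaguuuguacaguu

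The complementary motif CTACCTC was searched on the sense strand of the 3' UTR of the longest coding transcript in GENCODE M21. Every one of the 6 genes had at least 1 match, compared to 10.4% of 11890 genes with an annotated 3' UTR that were tested against wildtype in both knockouts. Lin28b, Hmga2 and Igf2bp1 had 4 matches each, and Hmga1, Igf2bp2 and Igf2bp3 had 1 each. A number of 4 or more was found in 10 of the 11890 genes (0.0841%). Long 3' UTRs hold more matches. Among genes with a 3' UTR within 20% of the same length, as many matches were found in 0.221% for Lin28b (4445 bases), 0.133% for Hmga2 (3014 bases) and 0.253% for Igf2bp1 (6337 bases). For the genes with a single match, the corresponding shares were 8.89% (Hmga1, 1178 bases), 12.5% (Igf2bp2, 1784 bases) and 13.6% (Igf2bp3, 2119 bases), so that a single match is common for their lengths. The genes were thus not equal in this feature. The match followed by A, which is the longer motif CTACCTCA and contains the shorter one, occurred in 5 of the 6 genes and in 3.74% of all genes. The exception was Hmga1.

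Of each gene the match nearest to the stop codon is shown, 5′ to 3′ on the sense strand, with the 7 bases of the motif in capitals. All lie in 3' UTRs of the GRCm38 assembly (mm10) and, except for that of Hmga1, on the minus strand.

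Lin28b, chr10:45381022-45381044: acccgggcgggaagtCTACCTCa

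Hmga1, chr17:27563277-27563299: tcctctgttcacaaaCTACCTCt

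Hmga2, chr10:120364224-120364246: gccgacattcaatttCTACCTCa

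Igf2bp1, chr11:95961778-95961800: gctgtgcgaagtaaaCTACCTCa

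Igf2bp2, chr16:22059473-22059495: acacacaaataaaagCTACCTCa

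Igf2bp3, chr6:49086787-49086809: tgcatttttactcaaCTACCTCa

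In Lin28b and Hmga2 this match starts 36 and 58 bases after the stop codon, whereas the first match in Igf2bp1 starts at base 1715. Igf2bp1 has 3 matches that are followed by A, at bases 1715, 4136 and 4730. A match of these letters is a description of the sequence. MicroRNAs themselves were not measured, since the libraries were made from polyadenylated RNA.

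**Figure D1:**
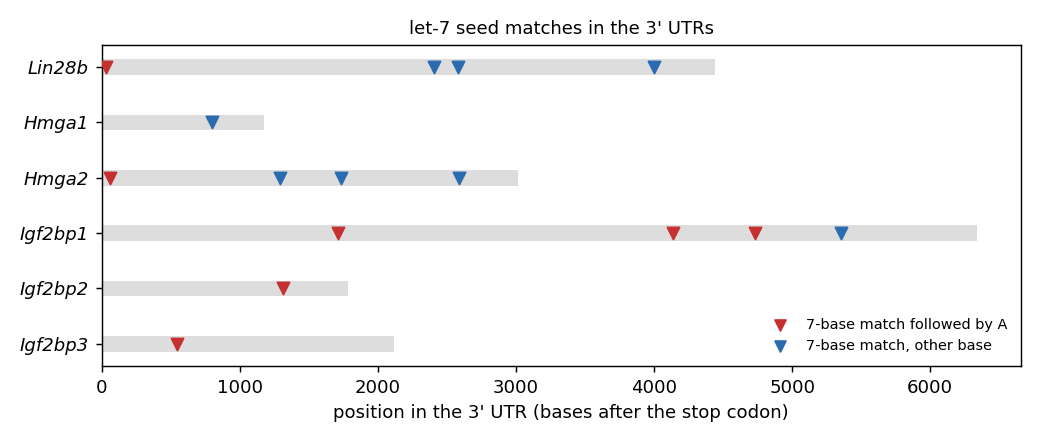
Positions of 7-base let-7 seed matches (triangles) in the 3' UTRs of the 6 genes (grey bars, drawn to the annotated length), in bases after the stop codon. Lin28b, Hmga2 and Igf2bp1 have 4 matches each, and red marks those followed by A.

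Between 30968945 and 48301792 reads per library were counted on genes, and levels are given as CPM, which are read counts scaled to the normalized size of each library. Transcripts of the targeted genes served as a check of the labels. The Kat5 gene was lower in Kat5 ko clones (log2-fold change −1.40, adjusted p = 0.0217 by edgeR's quasi-likelihood test), as was the Ep400 gene in Ep400 ko clones (log2-fold change −1.44, adjusted p = 0.00121). Of 16 neural crest markers, 12 reached a mean of 1 CPM in wildtype cells, but Sox10 and Foxd3 were at 0 counts in all libraries. Markers of neurons, glia, epithelium, endothelium and blood summed to at most 7.80 CPM per library. Within these lists, Krt8, Krt18 and Pecam1 fell and Stmn2 rose in Ep400 ko. Cartilage and bone markers summed to 6.40 to 25.9 CPM in wildtype, 3.87 to 56.0 CPM in Kat5 ko and 0.277 to 1.24 CPM in Ep400 ko libraries, and Acan, a cartilage proteoglycan, fell in Ep400 ko (log2-fold change −7.83, adjusted p = 0.00318 by edgeR). Their part in the results for Igf2bp1 and Lin28b, which were also lower in Ep400 ko clones, was not tested. Smooth muscle markers summed to 687 CPM in Kat5/1, compared to 0.457 to 57.2 CPM in the other 9 libraries. Replicates of a group differed by more than sampling noise throughout. In bulk RNA, fewer cells that express a gene and less RNA per cell cannot be told apart.

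In wildtype cells, the 6 genes differed strongly in level. Per kilobase of exon, Hmga1 was highest with 344 ± 54.8 CPM (SD, n = 4), followed by Hmga2 with 199 ± 19.4, Igf2bp2 with 28.9 ± 3.48 and Igf2bp1 with 8.99 ± 0.841. Igf2bp3 with 3.30 ± 1.62 and Lin28b with 0.186 ± 0.199 CPM per kilobase were lowest. No neighbours in this order overlapped among the wildtype libraries. The order was the same in Kat5 ko clones, where the ranges of Hmga1 and Hmga2 overlapped, as did those of Igf2bp3 and Lin28b. In Ep400 ko clones, Hmga2 (336 ± 212, n = 3) and Hmga1 (280 ± 152) overlapped, and so did Igf2bp3 (4.94 ± 1.85) and Igf2bp1 (4.26 ± 0.351), while Lin28b remained lowest with 0.0391 ± 0.0152 CPM per kilobase. O9-1 cells therefore had abundant Hmga transcripts together with very few Lin28b transcripts. The paralog Lin28a was at 0 counts in every library.

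**Figure D2:**
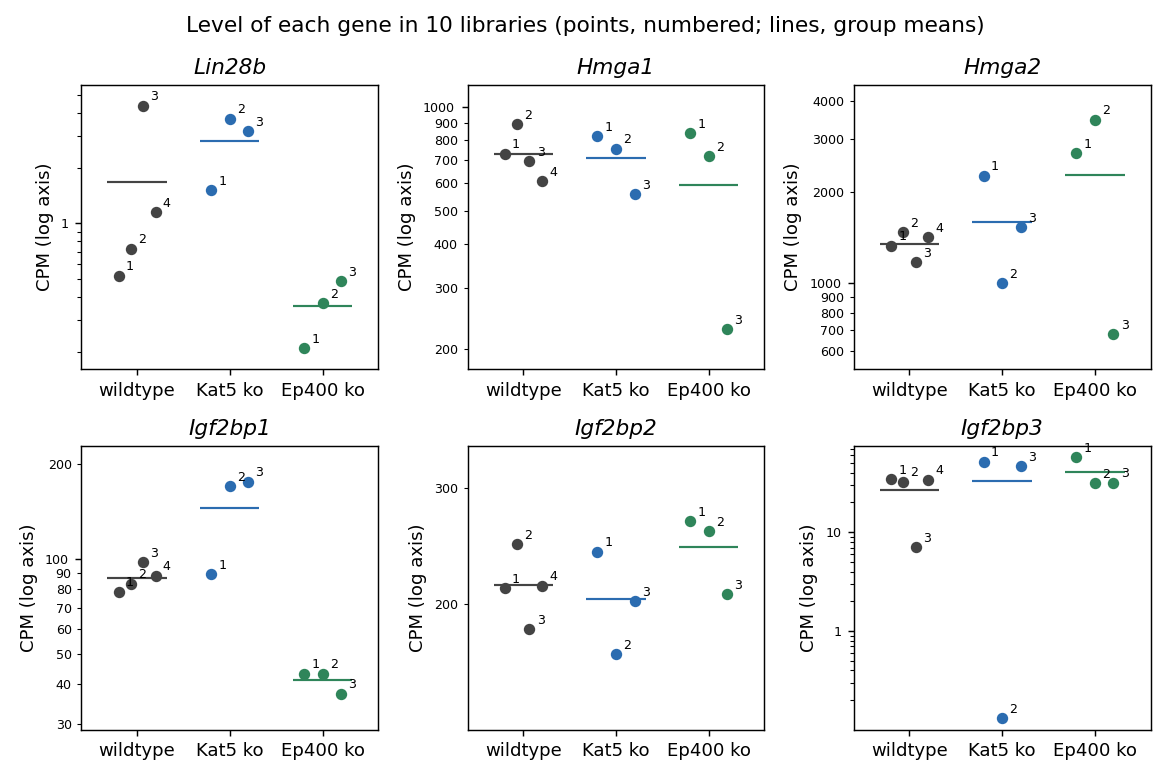
CPM of each of the 6 genes (logarithmic axes, a different scale per gene) in wildtype, Kat5 ko and Ep400 ko libraries. Points are libraries with their number, lines are group means, and the Ep400 ko clones lie below all other libraries for Lin28b and Igf2bp1.

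The log2-fold changes of the 6 genes differed in sign, with 4 positive values in Kat5 ko, 3 in Ep400 ko and 3 between the knockouts. All 6 passed the filter on low counts in each comparison. Between Kat5 ko clones and wildtype cells, 0 of 6 reached an adjusted p of 0.05 in edgeR's quasi-likelihood test (Benjamini-Hochberg), at a background of 0.499% of 13434 genes (0.127% higher and 0.372% lower). At an unadjusted p under 0.05 there was 1 gene (Igf2bp1) at a background of 22.3%, DESeq2 called the same gene, and limma-voom called 0. Between Ep400 ko clones and wildtype cells, 1 of 6 passed, with lower levels (Igf2bp1), at a background of 5.76% of 13836 genes lower, 8.09% higher and 13.9% in either direction. At an unadjusted p under 0.05 there were 2 (Igf2bp1 and Lin28b), at a background of 32.3%. In the direct comparison of Ep400 ko with Kat5 ko clones, 2 of 6 passed, both lower in Ep400 ko (Lin28b and Igf2bp1), at a background of 2.97% of 13587 genes lower, 4.34% higher and 7.32% in either direction. The same 2 genes had an unadjusted p under 0.05, at a background of 32.4%. Further limits were a log2-fold change of at least 1 in size and a mean normalized count over 100 in either group. With them, the numbers were again 0, 1 and 2 of 6, at backgrounds of 0.387%, 6.48% and 5.51%. Lin28b met the count limit only through the group where it was higher, with means of 107 in Kat5 ko and 13.5 in Ep400 ko. The median log2-fold changes of the 6 genes were 0.26, −0.01 and −0.0039 in the 3 comparisons, beside 3.2e-05, 0.04 and 0.0063 for all genes tested. Both comparisons with wildtype used the same 4 wildtype libraries.

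Separation of the groups was counted as well. No gene of the 6 separated all Kat5 ko clones from all wildtype libraries, at a background of 8.72% of genes higher and 10.9% lower. All Ep400 ko clones lay below the lowest wildtype library for 2 of 6 genes (Lin28b and Igf2bp1), at a background of 14.1%, and 0 lay above the highest, at a background of 16.1%. The same 2 genes were lower in all Ep400 ko than in all Kat5 ko clones, at a background of 19.4%, and 0 were higher, at a background of 19.5%.

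**Figure D3:**
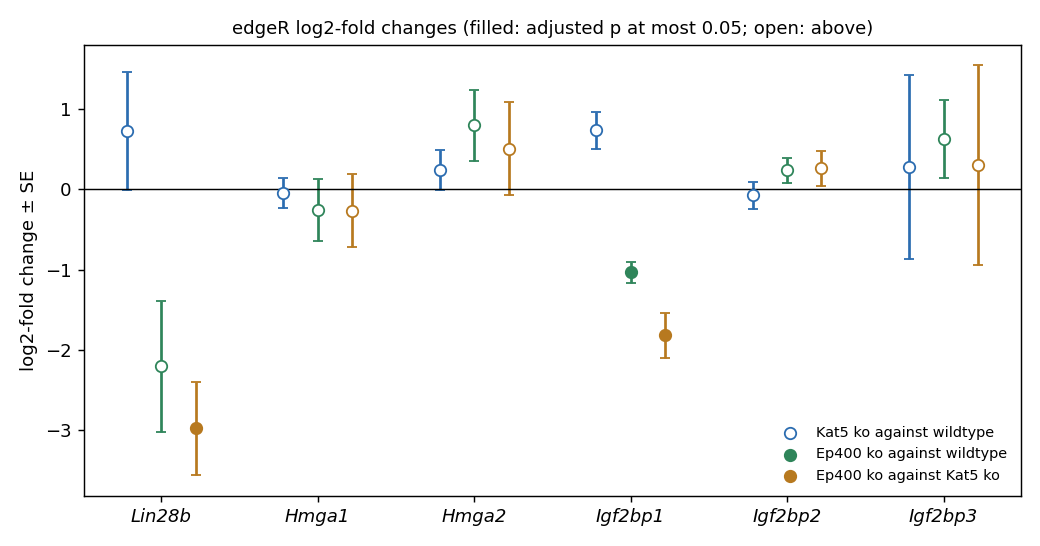
Log2-fold changes (points) with standard errors (bars) of the 6 genes from edgeR for Kat5 ko against wildtype, Ep400 ko against wildtype and Ep400 ko against Kat5 ko. Filled points have an adjusted p of at most 0.05, which held for Igf2bp1 in both comparisons of Ep400 ko and for Lin28b in the direct comparison.

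Lin28b (ENSMUSG00000063804, chr10:45376620-45486395, minus strand) was low in all libraries. It had 0.519, 0.728, 4.37 and 1.15 CPM in WT/1 to WT/4, which corresponds to 16, 25, 165 and 51 counts. Kat5/1, Kat5/2 and Kat5/3 had 1.52, 3.73 and 3.18 CPM (55, 114 and 145 counts). Ep400/1, Ep400/2 and Ep400/3 had 0.210, 0.369 and 0.484 CPM (9, 12 and 20 counts). All Ep400 ko clones were below all other libraries, whereas WT/3 was above all Kat5 ko clones and the remaining wildtype libraries were below them. The log2-fold change between Ep400 ko and wildtype was −2.20 (standard error 0.81) and did not pass the test (adjusted p = 0.102 by edgeR's quasi-likelihood test). It was −1.14 without WT/3, and DESeq2 placed it past the threshold (−2.23, adjusted p = 0.0330). Kat5 ko and wildtype differed by 0.72 on the log2 scale (standard error 0.73, adjusted p = 0.592 by edgeR), and without WT/3 it was 1.81 (adjusted p = 0.145).

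The knockouts themselves differed in Lin28b. Its level was 7.86-fold lower in Ep400 ko than in Kat5 ko clones (log2-fold change −2.97, standard error 0.58, adjusted p = 0.0347 by edgeR's quasi-likelihood test), with all 3 Ep400 ko clones below all 3 Kat5 ko clones. When single clones were left out, the value was between −3.28 and −2.71. The adjusted p then ranged from 0.0229 to 0.133 and was at most 0.05 only without Kat5/1. The counts of 9 to 20 in Ep400 ko clones limit the precision of this fold change.

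Hmga1 (ENSMUSG00000046711, chr17:27556497-27563674, plus strand) had similar levels in 9 of 10 libraries. Wildtype libraries had 731, 889, 697 and 610 CPM, Kat5 ko clones had 823, 757 and 558 CPM, and Ep400 ko clones had 838, 720 and 227 CPM. Ep400/3 was below all other libraries, and the groups overlapped. Hmga1 did not pass edgeR's test for Kat5 ko (log2-fold change −0.04, standard error 0.19, adjusted p = 0.915), for Ep400 ko (−0.26, standard error 0.38, adjusted p = 0.671) or between the knockouts (−0.27, standard error 0.45, adjusted p = 0.709). The change in Ep400 ko turned to 0.12 without Ep400/3. These values are uncertain, because how reads with several matches in the genome were counted is not stated.

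Hmga2 (ENSMUSG00000056758, chr10:120361275-120476469, minus strand) was even between wildtype libraries and uneven between clones. It had 1331, 1475, 1175 and 1421 CPM in WT/1 to WT/4. Kat5/1, Kat5/2 and Kat5/3 had 2263, 999 and 1529 CPM, and Ep400/1, Ep400/2 and Ep400/3 had 2683, 3468 and 679 CPM. Ep400/1 and Ep400/2 were above all other libraries, and Ep400/3 was below all of them. In Ep400 ko, Hmga2 differed from wildtype by 0.79 on the log2 scale (standard error 0.44, adjusted p = 0.245 by edgeR's quasi-likelihood test). Clone Ep400/3 decided the call, since without it the value was 1.22 (adjusted p = 0.00764). In Kat5 ko, the difference of 0.24 (standard error 0.25, adjusted p = 0.611) became −0.10 without Kat5/1. Between the knockouts, Hmga2 did not pass edgeR's test (0.50, standard error 0.58, adjusted p = 0.569).

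The spread of Hmga1 and Hmga2 among Ep400 ko clones was large compared to other genes. The SD of log2 CPM was above that of 92.3% of 13322 genes for Hmga1 and of 95.5% for Hmga2, and in both cases Ep400/3 was the lowest library. Per kilobase, the ratio of Hmga2 to Hmga1 was 0.521 to 0.731 in wildtype libraries, 0.863, 0.414 and 0.859 in Kat5/1 to Kat5/3, and 1.00, 1.51 and 0.938 in Ep400/1 to Ep400/3. The ratio in all Ep400 ko clones was thus above that of all other libraries, also in Ep400/3, where both genes were low. It was not tested. Other markers moved with Ep400/3: its 10 proliferation genes summed to 1028 CPM, compared to 2185 and 1674 CPM in Ep400/1 and Ep400/2 and 2163 to 2361 CPM in wildtype libraries. Its 8 other high mobility group genes summed to 1028 CPM, compared to 1692 and 1431 CPM in these clones and 1475 to 1922 CPM in wildtype libraries. Their part in the Hmga levels was not tested.

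Igf2bp1 (ENSMUSG00000013415, chr11:95957163-96005940, minus strand) had the smallest adjusted p of the 6 genes in the comparison of Ep400 ko with wildtype. WT/1 to WT/4 had 78.7, 83.4, 97.7 and 88.5 CPM. Kat5/1, Kat5/2 and Kat5/3 had 89.4, 170 and 176 CPM. Ep400/1, Ep400/2 and Ep400/3 had 43.2, 43.3 and 37.3 CPM. Every Ep400 ko clone was below every other library, and Kat5/2 and Kat5/3 were above every other library, while Kat5/1 lay within the wildtype range. In Ep400 ko, Igf2bp1 fell 2.05-fold (log2-fold change −1.03, standard error 0.13, adjusted p = 0.00382 by edgeR's quasi-likelihood test). When single libraries were left out, the log2 value stayed between −1.09 and −0.98 and the adjusted p between 0.00837 and 0.0188. The spread among the Ep400 ko clones was small, with an SD of log2 CPM above that of 11.4% of genes.

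In Kat5 ko, Igf2bp1 did not pass the test (log2-fold change 0.73, standard error 0.23, adjusted p = 0.123 by edgeR's quasi-likelihood test, unadjusted p = 0.0113). This call depended on clone Kat5/1, since without it the log2-fold change was 0.99 (adjusted p = 0.00513 by edgeR). The number of all genes that passed in Kat5 ko depended on single libraries as well. It was 67 with all libraries and 1 to 2651 with 1 library left out. DESeq2 placed Igf2bp1 past the threshold with all clones (0.75, adjusted p = 0.0358). Kat5/1 was also the clone with smooth muscle markers at 687 CPM, and their part in the level of Igf2bp1 was not tested. Between the knockouts, Igf2bp1 was 3.52-fold lower in Ep400 ko than in Kat5 ko clones (log2-fold change −1.82, standard error 0.28, adjusted p = 0.0263 by edgeR). When single clones were left out, the value was between −2.08 and −1.65, and the adjusted p ranged from 0.0109 to 0.104 and was at most 0.05 only without Kat5/1.

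Genes of chromosome 11 moved together with Igf2bp1 to a small extent. Relative to wildtype, their median log2 level was −0.21, −0.25 and −0.29 in Ep400/1 to Ep400/3, and −0.14, 0.08 and 0.12 in Kat5/1 to Kat5/3. With this shift removed, Igf2bp1 still had a log2-fold change of −0.84 in Ep400 ko (adjusted p = 0.00595 by edgeR) and of −1.57 between the knockouts (adjusted p = 0.0290). The antisense transcript Gm29202 overlaps an exon of Igf2bp1, and whether reads were counted by strand is not stated.

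The genes with the pattern most like that of Igf2bp1 over the 10 libraries were Ppid, Lig3 and Larp1 among 11919 genes. The mean absolute difference of their log2 levels relative to wildtype was 0.13, 0.13 and 0.14. Ppid, a cyclophilin of chromosome 3, had 130 to 161 CPM in wildtype, 146, 306 and 266 CPM in Kat5/1 to Kat5/3 and 73.6 to 75.3 CPM in Ep400 ko libraries. Lig3, a DNA ligase, and Larp1, which binds messenger RNA, both lie on chromosome 11 as does Igf2bp1. Like Igf2bp1, these genes were near the wildtype level in Kat5/1 and higher in Kat5/2 and Kat5/3.

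Igf2bp2 (ENSMUSG00000033581, chr16:22059009-22163299, minus strand) was the most even of the 3 paralogs. It had 212, 246, 183 and 213 CPM in WT/1 to WT/4, 240, 168 and 202 CPM in Kat5/1 to Kat5/3, and 267, 258 and 207 CPM in Ep400/1 to Ep400/3. The groups overlapped, and the highest library was 1.59-fold above the lowest. Igf2bp2 did not pass edgeR's test for Kat5 ko (log2-fold change −0.08, standard error 0.17, adjusted p = 0.820), for Ep400 ko (0.23, standard error 0.15, adjusted p = 0.324) or between the knockouts (0.26, standard error 0.21, adjusted p = 0.429).

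Igf2bp3 (ENSMUSG00000029814, chr6:49085223-49214957, minus strand) was nearly absent from a single clone. It had 34.2, 32.3, 7.09 and 33.9 CPM in WT/1 to WT/4. Kat5/1 and Kat5/3 had 51.5 and 46.2 CPM (1861 and 2109 counts), but Kat5/2 had 0.131 CPM (4 counts). Ep400/1, Ep400/2 and Ep400/3 had 57.7, 31.5 and 31.6 CPM. The groups overlapped, with WT/3 the lowest wildtype library and Kat5/2 far below all others. Igf2bp3 did not pass edgeR's test for Kat5 ko (log2-fold change 0.27, standard error 1.14, adjusted p = 0.911), for Ep400 ko (0.62, standard error 0.48, adjusted p = 0.398) or between the knockouts (0.30, standard error 1.24, adjusted p = 0.884). Without Kat5/2, the log2-fold change was 0.86 for Kat5 ko and −0.29 between the knockouts.

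Kat5/2 was 54.3-fold below the lowest of the other 6 libraries of the Kat5 comparison, and its level was −6.95 on the log2 scale relative to the wildtype mean. Among 9319 genes with at least 5 CPM in these 6 libraries, 5 were more than 32-fold lower in Kat5/2. They were Speg, Arhgef5, Igf2bp3, Rcn3 and Dkk3, and were listed after their values had been seen. Neighbouring genes were examined for the same reason. Within 500 kb of the start of Igf2bp3, 6 other genes were tested. Ccdc126 and Tra2a upstream of it were at 0.49 and 0.37 relative to wildtype in Kat5/2, and Malsu1 downstream was at −0.24. Farther downstream, Gpnmb, Tmem176b and Tmem176a were at −5.15, −4.10 and −4.25 on this log2 scale. Malsu1, which lies between Igf2bp3 and Gpnmb, had 489 counts in Kat5/2, and its exons overlap those of Igf2bp3 on the opposite strand. Gpnmb, Tmem176b and Tmem176a did not follow the level of Igf2bp3 in every library. In Ep400/2, Tmem176b and Tmem176a were at −6.23 and −5.60 while Igf2bp3 was at 0.47. Gpnmb was at −1.42 in WT/2, at −1.06 in Kat5/3 and between 2.43 and 3.56 in the Ep400 ko clones.

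**Figure D4:**
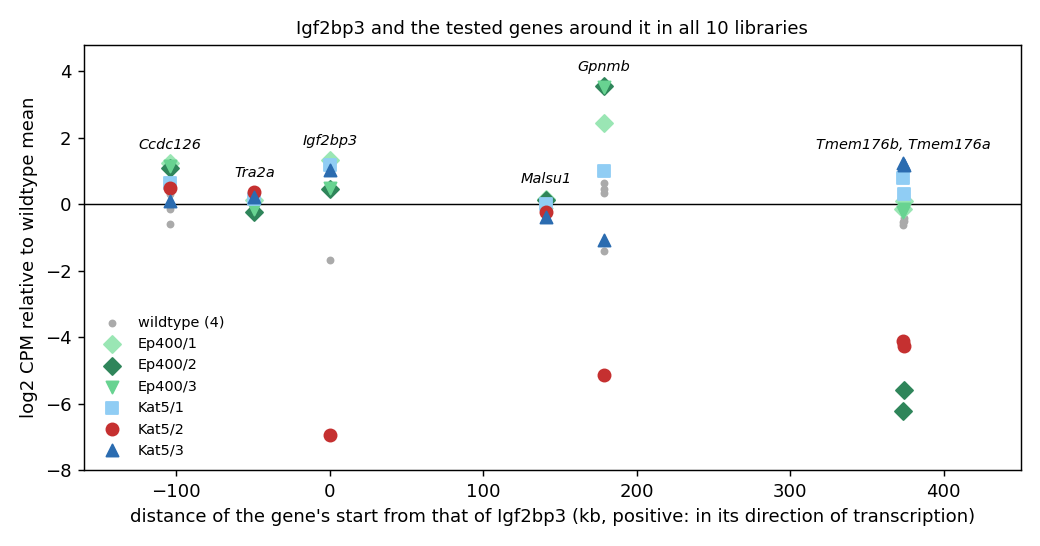
Log2 CPM relative to the wildtype mean of Igf2bp3 and 6 tested neighbours in the 10 libraries, against the distance of their starts from that of Igf2bp3 in kb. In Kat5/2, Igf2bp3 is at −6.95 and Gpnmb, Tmem176b and Tmem176a between −5.15 and −4.10, while Malsu1 is at −0.24. Tmem176b and Tmem176a are also low in Ep400/2 (−6.23 and −5.60), where Igf2bp3 is at 0.47.

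The composition of the Igf2bp family differed between libraries. The sum of the 3 paralogs per kilobase was 35.7 to 45.9 CPM in wildtype, 40.3 to 51.1 in Kat5 ko and 35.7 to 47.6 in Ep400 ko libraries, so that the groups overlapped. Igf2bp2 contributed most in every library, with 53.4% to 80.7%. The share of Igf2bp1 was 18.8% to 28.2% in wildtype libraries, 19.3%, 43.6% and 35.5% in Kat5/1 to Kat5/3 and 9.37% to 10.8% in Ep400 ko clones. The share of Igf2bp3 was 0.0397% in Kat5/2 and 2.43% in WT/3, and between 8.65% and 14.9% in the other libraries. Shares were not tested.

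Other genes that make or act with let-7 are given with the shares over all genes. Of 17 tested genes of the let-7 machinery, 0 passed edgeR's test in Kat5 ko (4 at an unadjusted p under 0.05, 3 by DESeq2, 0 by limma-voom). Over all genes, 0.499% passed there and 22.3% had an unadjusted p under 0.05, and DESeq2 called 1475 genes. In Ep400 ko, 2 of 17 passed with lower levels and 0 with higher levels. The background was 5.76% of genes lower, 8.09% higher and 13.9% in either direction. The median was 0.07 for the list and 0.04 for all genes. At an unadjusted p under 0.05 there were 4, at a background of 32.3%, while DESeq2 called 3 lower and limma-voom 1. The genes that passed edgeR's test were Trim71 and Drosha. Trim71, a ubiquitin ligase and let-7 target of stem cells, had a log2-fold change of −1.55 (adjusted p = 0.0104 by edgeR). Drosha, the nuclease that cuts primary microRNAs, had −0.45 (adjusted p = 0.0490 by edgeR). Trim71 had 4.83 to 6.19 CPM in wildtype libraries, 0.857, 9.38 and 12.1 CPM in Kat5/1 to Kat5/3 and 1.61 to 1.87 CPM in Ep400 ko clones. Between the knockouts, 0 of 17 passed edgeR's test (7 at an unadjusted p under 0.05, 5 by DESeq2, 0 by limma-voom). Over all genes, 7.32% passed edgeR's test there and 32.4% had an unadjusted p under 0.05. Of genes that host let-7 microRNAs, 2 were tested. Huwe1 fell in Ep400 ko (−0.68, adjusted p = 0.0403 by edgeR), at a background of 5.76% of genes lower. Wdr82 did not pass the test in any comparison.

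Of 24 tested genes from a list of further let-7 targets, 1 passed edgeR's test with a higher level in Kat5 ko. In Ep400 ko, 3 passed with lower levels, and 1 passed as lower in Ep400 ko than in Kat5 ko clones. The backgrounds were 0.127% of genes higher in Kat5 ko, 5.76% lower in Ep400 ko and 2.97% lower between the knockouts. At an unadjusted p under 0.05 there were 8, 8 and 9 of the 24 genes, at backgrounds of 22.3%, 32.3% and 32.4%. Of all genes, DESeq2 called 1475 in Kat5 ko and 3131 in Ep400 ko. Of the 24 genes, DESeq2 called 6 higher in Kat5 ko, 1 higher and 4 lower in Ep400 ko and 7 lower between the knockouts. For them, limma-voom called 1 higher, 3 lower and 2 lower. The median log2-fold changes were 0.31, −0.05 and −0.38, beside 3.2e-05, 0.04 and 0.0063 for all genes. Cdc25a, a phosphatase that drives the cell cycle, rose in Kat5 ko (log2-fold change 0.98, adjusted p = 0.0466 by edgeR) and was lower in Ep400 ko than in Kat5 ko (−1.46, adjusted p = 0.0465). Its levels were 32.6 to 40.8 CPM in wildtype, 60.2 to 83.4 CPM in Kat5 ko and 14.7 to 35.7 CPM in Ep400 ko libraries. The genes that fell in Ep400 ko included the transcription factor gene Mycn (−3.90, adjusted p = 0.00885 by edgeR) and the cell cycle kinase gene Cdk6 (−1.32, adjusted p = 0.0225). Mycn was low throughout, with 2.25 to 4.63 CPM in wildtype and 0.0614 to 0.443 CPM in Ep400 ko libraries.

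The 7 other genes with 4 or more seed matches were D10Wsu102e, Hic2, Mcf2l, Nr6a1, Nudt12, Trim71 and Zbtb37. In Ep400 ko, 1 of the 7 passed edgeR's test with a lower level (Trim71), at a background of 5.76%. Their median log2-fold change was −0.28, compared to 0.03 for 10973 genes without a match. In 1104 genes with 1 match the median was 0.06, and in 155 genes with 2 or 3 matches it was 0.08. The lower and upper quartiles were −0.54 and 0.0098 for the 7 genes and −0.33 and 0.43 for genes without a match. These ranges overlapped. In Kat5 ko, 0 of the 7 passed edgeR's test and their median was 0.10, compared to 0.0047 for genes without a match. There, genes with 1 match had a median of 0.04 and those with 2 or 3 had 0.12. The 7 genes were not tested as a set. The annotated 3' UTR of D10Wsu102e is unusually long (122583 bases).

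None of the 8 tested transcripts known to be bound by Igf2bp proteins passed edgeR's test in any comparison (0 of 8, with 5, 4 and 5 at an unadjusted p under 0.05 in Kat5 ko, in Ep400 ko and between the knockouts). Over all genes, the shares were 0.499%, 13.9% and 7.32% at an adjusted p of 0.05, and 22.3%, 32.3% and 32.4% at an unadjusted p under 0.05. DESeq2 called 2, 4 and 3 of the 8 transcripts, and limma-voom called 1 in each. Of all genes, DESeq2 called 1475 in Kat5 ko and 3131 in Ep400 ko. H19, a noncoding RNA of imprinted expression that was singled out after its values had been seen, had 3.92 to 6.70 CPM in wildtype, 0.098 to 1.08 CPM in Kat5 ko and 0.522 to 2.83 CPM in Ep400 ko libraries. Its log2-fold changes were −3.43 (adjusted p = 0.0729 by edgeR) in Kat5 ko and −1.61 (adjusted p = 0.0776) in Ep400 ko. Igf2, after which the family is named, had at most 0.509 CPM in any library.

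Of the 8 other high mobility group genes, 0 passed edgeR's test in any comparison (1, 5 and 5 at an unadjusted p under 0.05, with 0, 2 and 2 called by DESeq2 and 0, 1 and 0 by limma-voom). Their medians were 0.14 in Kat5 ko, −0.40 in Ep400 ko and −0.68 between the knockouts, beside 3.2e-05, 0.04 and 0.0063 for all genes. Of 6 tested genes that Hmga proteins are known to regulate or to act with in the cell cycle, 0 passed as well (0, 2 and 2 at an unadjusted p under 0.05, with 0, 1 and 2 called by DESeq2 and 0 by limma-voom). For both lists, the shares over all genes were 0.499%, 13.9% and 7.32% at an adjusted p of 0.05. At an unadjusted p under 0.05 they were 22.3%, 32.3% and 32.4%. Among 10 proliferation genes, Top2a, the topoisomerase of dividing cells, was the only one to pass in Ep400 ko (log2-fold change −0.75, adjusted p = 0.0286 by edgeR). The background was 5.76% of genes lower. The other proliferation genes had log2-fold changes between −0.63 (Aurka) and −0.0056 (Pcna) in Ep400 ko. The list medians were 0.37, −0.50 and −0.92 in the 3 comparisons.

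Factors of pluripotent cells were largely missing although Hmga transcripts were abundant. Of 14 pluripotency genes, Sox2 and Klf4 reached a mean of 1 CPM. Pou5f1 was at 0 counts in all libraries and Nanog had at most 0.0582 CPM. Klf4, which is also expressed outside of pluripotent cells, rose in Ep400 ko (log2-fold change 1.56, adjusted p = 0.00911 by edgeR) from 57.6 to 78.2 CPM in wildtype libraries to 111 to 260 CPM. Sox2 had 33.9 to 50.2 CPM in wildtype libraries and 62.4, 162 and 39.1 CPM in Ep400/1 to Ep400/3, and did not pass the test (1.10, adjusted p = 0.107). In Ep400 ko, 4 of 14 tested neural crest markers passed edgeR's test with higher levels (Pax3, Pdgfra, Tfap2a and Snai2), at a background of 8.09%. With lower levels 0 passed, at a background of 5.76%. At an unadjusted p under 0.05 there were 8, at a background of 32.3%. DESeq2 called 5 higher and 2 lower, and limma-voom 5 higher and 0 lower. Tfap2b (−0.84), Ets1 (−0.57), Snai1 (−0.47), Sox9 (−0.40) and Nes (−0.31) had negative log2-fold changes and did not pass. In Kat5 ko, 0 of 12 markers passed edgeR's test (1 at an unadjusted p under 0.05, 0 by DESeq2 and 0 by limma-voom). Their part in the levels of the 6 genes was not tested.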

How the data were processed

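RNA from 4 wildtype, 3 Kat5 ko and 3 Ep400 ko samples was examined, grouped by label. The authors prepared stranded poly-A libraries, sequenced paired 100 bp reads and mapped them to mm10. The submitters' processing notes name bcl2fastq 2.20, STAR 2.7.3, DESeq2 1.36.0 and R 4.2.1. The deposited raw counts are whole reads per gene, and the counting program, annotation and strand setting are not given in the sources used here. The 14 columns of normalized counts were not used.

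Using R 4.3.3 and edgeR 4.0.16, genes were filtered with filterByExpr and normalized by TMM separately for each comparison. The quasi-likelihood test of edgeR was applied to them, with p-values adjusted over all genes by Benjamini-Hochberg and a threshold of 0.05. DEGs also reached 1 in the size of the log2-fold change and had a mean normalized count over 100 in a group. CPM used TMM over all 10 libraries. DESeq2 1.42.0 and limma 3.58.1 were alternatives. Standard errors were derived from the F statistic. Positions, exons and 3' UTRs are from GENCODE M21, which holds 42462 of the 43346 gene identifiers, and microRNAs are from RefSeq on GRCm38.p6.

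The 6 genes and the lists were chosen with earlier results of these data known. List genes were named when they passed the test, up to 4 per list and comparison, and for Igf2bp1 the 3 genes with the smallest mean absolute difference of log2 CPM (prior count of 2, mean of at least 1 CPM). Replicate libraries are samples of a line or single clones, and p-values weigh group differences against the spread between them. This spread was fitted per gene over both groups, although clones differed more from each other. The median SD of log2 CPM was 0.231 in wildtype, 0.349 in Kat5 ko and 0.344 in Ep400 ko libraries. The procedure was tested on simulated data. Alternatives are listed at the end. An alternative for Hmga1 that was added after values had been seen, and 1 gene of the let-7 target list, are not reported here.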

Additional observations from a re-analysis of the deposited data

Results flagged for a closer look

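Among the 4 wildtype libraries, WT/3 stood far from the others for Lin28b (4.37 CPM, compared to 0.519 to 1.15 CPM) and for Igf2bp3 (7.09 CPM, compared to 32.3 to 34.2 CPM). The gap to the nearest library took 0.836 of the whole range for Lin28b and 0.931 for Igf2bp3, above Dixon's critical value for 4 samples. Chance flags about 1 in 20 groups, and 6 were examined. In the same library, genes of chromosome 16 had a median of −0.30 on the log2 scale relative to the wildtype mean. Lin28b lies on chromosome 10 and Igf2bp3 on chromosome 6.

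The response to the knockouts differed for Lin28b (log2-fold change of −2.97 in Ep400 ko against Kat5 ko) and Igf2bp1 (−1.82), as tested in the direct comparison with edgeR. All 3 Ep400 ko clones were below all 3 Kat5 ko clones for both genes.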

How the results depend on the processing

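Of 267 log2-fold changes of the 6 genes under alternatives, 235 kept their direction and side of the threshold, 13 no longer passed, 4 newly passed and 15 changed sign. DESeq2 placed Igf2bp1 in Kat5 ko (0.75) and Lin28b in Ep400 ko (−2.23) past the threshold. Hmga1 in Kat5 ko was 0.0661 with chromosome shifts removed, and Igf2bp3 in Kat5 ko was −1.38 with limma-voom. Replicate numbers did not pair libraries (residual correlations −0.0966 to 0.222). With the replicate block, Igf2bp3 in Kat5 ko was −0.0699, and Igf2bp1 in Ep400 ko (−1.03, adjusted p = 0.0602), Lin28b between the knockouts (−2.96, adjusted p = 0.0618) and Igf2bp1 between the knockouts (−1.76, adjusted p = 0.0526 by edgeR) no longer passed. The cause was not tested.

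With 1 library left out, log2-fold changes in Kat5 ko ranged from −0.16 to 0.11 (Hmga1), −0.10 to 0.49 (Hmga2), 0.58 to 0.99 (Igf2bp1), −0.21 to 0.0495 (Igf2bp2) and −0.21 to 0.86 (Igf2bp3). In Ep400 ko they ranged from −0.58 to 0.12 (Hmga1) and 0.33 to 1.22 (Hmga2). Between the knockouts they ranged from −3.28 to −2.71 (Lin28b), −0.59 to 0.12 (Hmga1), −2.08 to −1.65 (Igf2bp1) and −0.29 to 0.79 (Igf2bp3).

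The 67 genes that passed in Kat5 ko became 1475 with DESeq2, 245 without a filter, 26 in a single fit of all libraries, 0 with the replicate block (edgeR) and 1 to 2651 with 1 library left out. The 52 DEGs became 506, 166, 22, 0 and 1 to 903. In Ep400 ko, 1917 genes became 3131 with DESeq2, 1273 in a single fit, 173 with the block and 826 to 2016 with 1 library left out, and 896 DEGs became 163 with the block and 546 to 1028. Between the knockouts, 994 genes became 3067 with DESeq2, 1803 without a filter, 3539 in a single fit, 213 with the block and 4 to 2537, and 748 DEGs became 1844, 1349, 1775, 200 and 4 to 1750. With the 6-base seed match, Hmga2 had 7 and Igf2bp2 had 2 matches. In Ep400 ko clones, Lin28b rested on 9 to 20 counts per library.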
